A study of Rattus norvegicus with 6 samples.

Results

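Intergenic CHH regions are stretches of the genome outside annotated genes in which cytosines of the CHH context (H is A, C or T) differed in methylation between stressed and unstressed rats. Within the authors' annotated list they were chosen by annotation alone. A region was kept when none of its annotation rows named a promoter, exon, intron, 5′ or 3′ untranslated region, TSS or TES. The annotated list itself had been chosen by a score that the methylation difference enters, as described below. This gave 5908 regions of 9996 annotated CHH regions and of 24862 annotated regions of all contexts. A repeat overlapped 3258 of them (55.1%), and 2650 had none. All positions are those of the authors' tables, on the rat assembly mRatBN7.2.

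The cells were brain microvascular endothelial cells (BMECs), which line the capillaries of the brain and carry the blood–brain barrier, sorted as CD45-/CD31+ cells from the hippocampus. Donors were male Sprague-Dawley rats, 6 weeks old when obtained. The CUMS group (3 samples) went through 8 weeks of chronic unpredictable mild stress, in which stressors such as restraint, wet bedding or food and water deprivation changed from day to day. The Ctrl group (3 samples) stayed in its home cages. The sort keeps all CD31-bearing cells that lack CD45 and does not separate capillary from larger-vessel endothelium, and no marker of cell purity could be checked in methylation tables.

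Most methylated cytosines of mammalian somatic cells lie in CG dinucleotides, where a maintenance methyltransferase copies the mark at each cell division. CHH sites lack that symmetric partner, so a CHH mark has to be placed anew, which is attributed mainly to DNMT3A and DNMT3B, and CHH levels are low outside neurons and pluripotent cells. Much intergenic DNA of the rat consists of retrotransposons: LINE-1 (L1) elements, endogenous retroviruses with long terminal repeats (ERVK, ERVL, ERVL-MaLR) and short SINEs (B1, B2, B4, ID). CG methylation is a main means by which their transcription is kept low.

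For each region the tables gave 1 level per group, made by the authors from all 3 samples together. No value per sample, read count or coverage of a region was given. No difference could therefore be set against the spread between rats, the depth behind each level was unknown, and the tests below speak of regions as listed, not of differences among animals. The annotated CHH regions came from a full list of 145823, from which the authors kept the 10000 of highest absolute areaStat, a region score that sums the statistics of all cytosines. Nearly all members (5744) lay in the open sea, far from CpG islands. CpG island shores or shelves held 139, CpG islands held 6, and 19 had no class.

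The direction of the difference was determined first. Methylation was higher in CUMS (hypermethylated) in 4681 members and lower (hypomethylated) in 1227, so 79.2% were hypermethylated (exact 95% binomial interval 78.2 to 80.3, for counting error over regions only). The share among all annotated CHH regions was 78.5%, and in the full CHH list, before the choice by areaStat, it was 64.6%. The members thus sat near the background of the annotated list, which was itself more one-sided than the full list.

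The levels behind these calls were close to zero on one side. Hypermethylated members had medians of 8.49% (CUMS) and 0.205% (Ctrl), and hypomethylated members of 0.166% (CUMS) and 6.13% (Ctrl). The group with the lower level was under 0.5% in 4810 members (81.4%) and under 1% in 5385 (91.1%). Among all annotated CHH regions these shares were 81.9% and 91.5%. Only 68 members had 5% or more in the lower group, of which 60 were hypermethylated, beside 102 and 93 of all annotated CHH regions. The regions were therefore mostly places where one group had almost no CHH methylation and the other a low level, in either direction. This held for the annotated CHH list as a whole and was not particular to the members. The median absolute difference was 7.58 percentage points.

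**Figure D1:**
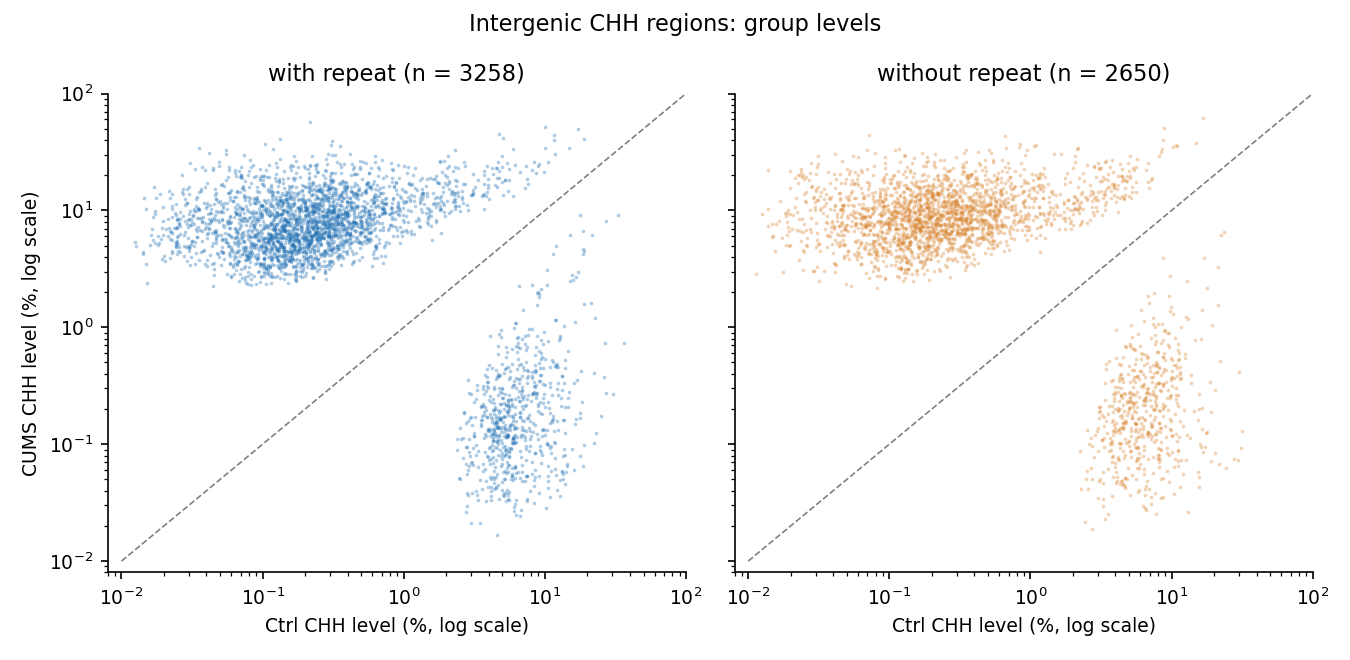
Level of each intergenic CHH region in CUMS (vertical axis) against Ctrl (horizontal axis), both in percent on log scales, for regions with a repeat (left) and without (right), with 1 point per region and a dashed line at equal levels. In both panels the points form 2 separate clouds, the larger above the line with medians of 8.49% (CUMS) and 0.205% (Ctrl) over both panels, and the smaller below it with 0.166% and 6.13%.

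Large differences were uncommon. A difference of 10 percentage points or more was reached by 1860 members (31.5%), beside 30.0% of all annotated CHH regions and 2.94% of the full list. It was reached by 35.4% of the hypermethylated and by 16.6% of the hypomethylated members, beside 34.2% and 14.5% in all annotated CHH regions. At 20 points 260 hypermethylated and 20 hypomethylated members were left (4.74% of members, beside 4.58% of all annotated CHH regions). At 30 points 41 and 3 were left (0.745%, beside 0.820%). The members, which make up 5908 of the 9996 annotated CHH regions, were thus near the whole list at each limit. Intron-only CHH regions reached 10 points in 29.1% and 20 points in 4.62%. For promoter or exon CHH regions these shares were lower, at 19.8% and 2.75%.

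Next, members with and without a repeat were compared, which asks whether the direction differs between transposon-derived and other intergenic DNA. With a repeat, 2582 of 3258 members were hypermethylated (79.3%), and without a repeat 2099 of 2650 (79.2%). The shares differed by 0.0435 percentage points (odds ratio 1.00, 95% interval 0.884 to 1.14, two-sided Fisher's exact p = 0.974, adjusted p = 0.974 over 2 tests with the Benjamini-Hochberg method). No difference in direction was detected, and the interval allows a difference of either sign within its bounds. Among members with a difference of at least 10 points the order turned, with an odds ratio of 0.715 (0.533 to 0.959, Fisher's exact p = 0.0260), and a repeat then went with fewer hypermethylated members.

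Levels were lower with a repeat, by a margin that varied with region length. Hypermethylated members had a median CUMS level of 7.94% with a repeat (quartiles 5.44 and 11.8) and 9.24% without (6.58 and 13.2). Hypomethylated members had a median Ctrl level of 5.94% with a repeat and 6.36% without. The level of the lower group hardly separated them, at 0.201% and 0.212% for Ctrl in hypermethylated members. The median absolute difference was 7.14 points with a repeat and 8.09 points without. A difference of 10 points was reached by 28.8% of the members with a repeat and by 34.8% of those without. Between 200 and 300 bp, which held 1959 members with and 1920 without a repeat, the higher group had medians of 8.49% and 8.53%, and from 400 bp on of 4.61% and 4.75%. Between 300 and 400 bp (822 and 471 members) they were 5.997% and 9.34%, and below 200 bp (37 and 96 members) 10.1% and 11.1%. Within classes of length the gap thus lay mainly in members of 300 to 400 bp, and at the most frequent lengths the levels were nearly equal. Members with a repeat were also longer, with a median of 281 bp against 265 bp. All members were chosen by areaStat, which the difference and the number of cytosines enter. The part of that choice and of length in this and the later level comparisons (repeat group, family, chromosome) was not tested.

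The direction was also compared by chromosome. On the 20 autosomes the hypermethylated share of all members ranged from 76.7% to 82.9%. The lowest share with a repeat was 75.8% (chromosome 12) and the highest 84.5% (chromosome 13), and without a repeat these were 73.2% (chromosome 10) and 84.8% (chromosome 7). The share was higher with a repeat on 7 autosomes and lower on 13, so no order held across the genome.

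**Figure D2:**
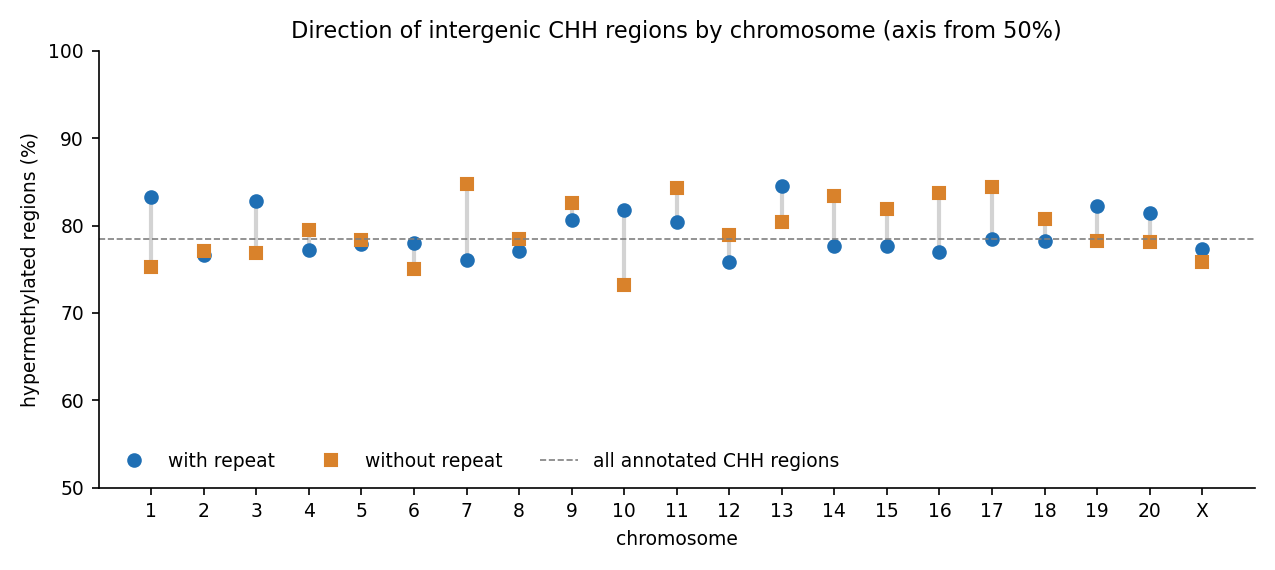
Share of hypermethylated regions (percent, vertical axis from 50%) on chromosomes 1 to 20 and X (horizontal axis) among intergenic CHH regions with a repeat (circles) and without (squares), with a dashed line at the share of all annotated CHH regions (78.5%). The circle lies above the square on 7 of 20 autosomes and below it on 13.

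Intron-only CHH regions, which lie in an intron and in no promoter, exon, untranslated region, TSS or TES, were the class most like the members. Of 3507 such regions 77.2% were hypermethylated, 1.99 percentage points fewer than the members (odds ratio 1.12, 95% interval 1.02 to 1.24, Fisher's exact p = 0.0240, adjusted p = 0.0480 over 2 tests). The odds ratio was 1.12 also when stratified by repeat annotation, but 0.861 (Fisher's exact p = 0.253) among regions with at least 10 points. The difference was thus small and did not hold for the larger differences. Repeats overlapped 55.1% of the members, 48.6% of intron-only regions and 39.4% of promoter or exon CHH regions.

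The X chromosome stood apart in its content. A repeat overlapped 234 of 296 X members (79.1%), compared with 53.7% of autosomal members. Intron-only regions showed the same order at 61.7% of 115 regions on X and 48.1% on autosomes. L1 elements, which are known to be dense on mammalian X chromosomes, overlapped 51.4% of X members and 15.9% of autosomal members. ERVK elements did not show this, with 14.5% and 14.6%. The direction was near that of the autosomes, with 77.0% hypermethylated on X and 79.3% on autosomes.

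Levels on X were lower in members with a repeat and nearly equal in members without. In the group with the higher level, the median was 5.97% on X and 7.55% on autosomes with a repeat, and 8.38% and 8.47% without. Within L1 members it was 5.65% and 6.85%. The X members with a repeat were also longer, with a median of 348.5 bp against 279 bp, and less dense in CHH cytosines, with 36.1 against 42.7 per 100 bp (both strands). The part of length and density in the lower level was not tested. Male rats carry a single X, and 15 members lay on Y, of which 10 had a repeat. A further 27 members lay on 17 unplaced scaffolds, 24 of them with a repeat and 25 hypermethylated.

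The repeats themselves were then examined. Members with a repeat held 4534 repeat copies of 416 families. L1, the autonomous non-LTR retrotransposon of mammals, was the most frequent class with 1059 members (32.5% of those with a repeat). ERVK, a class that includes retroviruses still active in rodents, followed with 865 (26.6%), ERVL-MaLR, non-autonomous LTR elements, with 479, and B1, listed as SINE/Alu because it derives from the same 7SL RNA as primate Alu, with 396. B4 elements overlapped 383 members, B2 elements 174, ERVL elements 151 and ID elements 136. A member with copies of several classes was counted in each. Of the intron-only regions with a repeat, L1 overlapped 20.7%, ERVK 426 of 1704 and B1 22.2%, so the members held more L1 and fewer B1 copies, B1 being 12.2% of the members with a repeat.

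All frequent classes were mostly hypermethylated. The share was 78.7% for L1, 77.6% for ERVK, 82.9% for ERVL-MaLR, 80.6% for B1, 78.3% for B4, 81.0% for B2 and 78.7% for ID. It was lower for ERVL, with 73.5% of 151, and for ERV1, with 69.0% of 58 members, and highest among classes with over 30 members for L2, an ancient LINE, with 91.2% of 34. In members that held a single repeat group, the share was 78.8% for LINE (868 members), 79.0% for LTR (1118) and 80.0% for SINE (705). The direction of a member could therefore hardly be told from its repeat group.

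The level did differ between groups. In members with a single repeat group the higher group had a median level of 6.70% for LINE, 8.05% for LTR and 8.07% for SINE. These LINE members were also longer, with a median of 291.5 bp against 274 bp for LTR and for SINE. ERVK members reached a difference of 10 points in 34.7%, compared with 24.9% of L1 and 23.2% of ERVL-MaLR members. ERVK was thus at the level of members without a repeat (34.8%), and L1 and ERVL-MaLR lay below. L1 members also had a lower density of CHH cytosines, with a median of 39.5 per 100 bp, than ERVK members with 41.7 and B1 members with 44.0.

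Among the 35 families with at least 40 members, each was more often hypermethylated than hypomethylated. The share ranged from 64.6% for L1_Rat1, an L1 family, to 91.1% for MTD, an ERVL-MaLR LTR. L1_Rat1 had 51 hypermethylated and 28 hypomethylated members, and its intron-only copies, which are other regions, gave 65.2% of 23. For MTD the intron-only share was 77.8%, so its high value was not seen there to the same extent. Other families changed order between intergenic and intron-only regions. B1_Rn gave 69.1% of 68 members and 85.1% of 74 intron-only regions, and Lx2, an L1 family, 66.7% and 92.3%. The families were ordered after their values were seen, and no family was tested.

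RMER17C2, an ERVK family, had the most members of any family, 156, and the highest median level of the higher group among the 35 families (9.93%, quartiles 7.19 and 13.6). Of these members 123 were hypermethylated, with medians of 11.0% for CUMS and 0.278% for Ctrl, and 33 were hypomethylated, with 0.216% and 6.45%. A difference of 10 points was reached by 48.1%. In introns, 77 regions with RMER17C2 gave a median of 9.74%, 79.2% hypermethylated and 42.9% at 10 points. The related RMER17C had 45 members and a median of 9.34%. The level of RMER17C2 was thus high in both sets of regions, but it did not lead in introns. There RNLTR15A2 had a median of 10.5% over 16 regions, with 43.8% at 10 points.

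The lowest levels were those of L1 families. Lx had a median of 5.00% over 61 members, L1_Rn2 of 5.04% over 60 and Lx2 of 5.39% over 48. L1_Rn, in contrast, reached 9.41% over 55 members, and Lx9 8.72% over 43. L1 families therefore spanned almost the whole range of family medians.

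**Figure D3:**
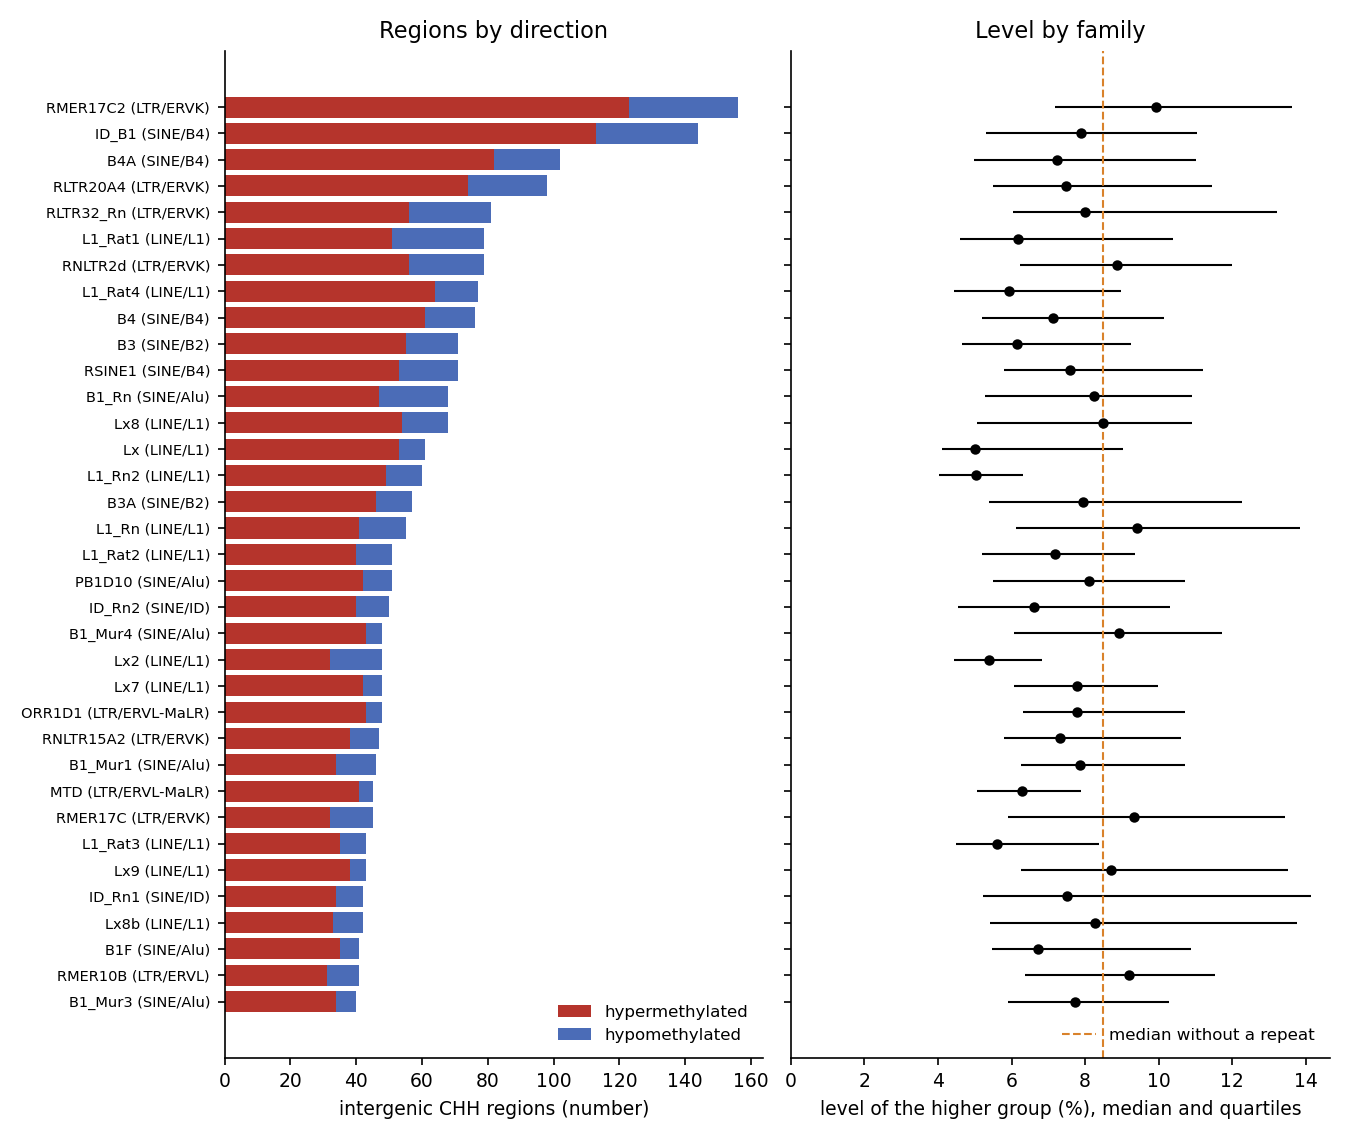
The 35 repeat families with at least 40 intergenic CHH regions, with the class in brackets: numbers of hypermethylated and hypomethylated regions (left) and the level of the higher group in percent as median (point) and quartiles (bar), with a dashed line at the median of regions without a repeat (right). The medians ran from 5.00% (Lx) to 9.93% (RMER17C2), and all 35 families had more hypermethylated than hypomethylated regions.

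The stretch of the repeat that was present also differed by family. In 4 ERVK families the copies were short and came from nearly the same stretch of the consensus, the reconstructed parent sequence on which positions are counted. RLTR20A4 copies (101 in 98 members) began between positions 414 and 436 (quartiles) and ended between 493 and 518, and 79.2% were shorter than 100 bp. RLTR32_Rn copies (86 in 81 members) began between 409 and 432 and ended between 488 and 509, with up to 3 copies in a member. RNLTR2d (79 copies) and RNLTR15A2 (48 copies) had median lengths of 78 bp and 72.5 bp. RMER17C2 copies were longer, with a median of 466 bp. Members of the first 4 families thus shared a short stretch within each family, which the rule did not use. Copies of these families elsewhere in the genome were not examined, so the stretch cannot be called particular to the members.

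The members were similar in size. Their median length was 273.5 bp (281 bp with a repeat, 265 bp without), with a range from 117 to 1686 bp, and they held a median of 125 CHH cytosines on both strands. The study sheared its DNA to 200 to 350 bp before library preparation, and 79.6% of the members fell within these bounds. The share was 75.1% with a repeat, 85.1% without and 79.1% in intron-only regions, compared with 25.1% of the CHH regions of the full list outside the annotated choice. The areaStat choice takes regions with many cytosines, which are longer, and its part in this share was not separated.

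Density of CHH cytosines ran along with the presence of a repeat. The median density was 42.1 per 100 bp with a repeat and 46.9 without, and 34.8 in the full list outside the choice. At 60 or more per 100 bp lay 5.62% of the members without a repeat and 1.60% of those with one. When members were divided into 5 classes of nearly equal size by density, a repeat was present in 72.9% of the least dense and 34.0% of the most dense class. The hypermethylated share was 81.3% in the least dense and 74.3% in the most dense class. In the densest class it was 74.4% with and 74.2% without a repeat, so the lower share was found in both. None of the 14573 repeat rows of the annotation table named a simple repeat or low complexity sequence, so members without a repeat may still hold such sequence.

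CHG and CG methylation was measured at other cytosines of the same DNA, which the choice of members did not use. Its regions were listed for a difference between the same groups, so the overlap is not a separate test. A CHG region of the list overlapped 362 members (6.13%) by at least 1 bp. It did so in 275 members with a repeat (8.44%) and in 87 without (3.28%). In all 375 overlapping pairs the CHG and the CHH region had the same direction. Intron-only regions overlapped a CHG region in 7.21%, and 258 of 262 pairs had the same direction.

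The levels of overlapping regions were also alike. The CHG level of the higher group was a median of 1.13 times the CHH level (quartiles 0.940 and 1.34). The median was 5.55% for CHH and 5.96% for CHG. Both contexts are read from the same fragments, so the pairs are not independent measurements. A fragment on which the deaminase fails leaves cytosines of every context unconverted and read as methylated, and the part of this in the measured levels was not tested.

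Overlap with CHG rose with region length. Overlapping members had a median length of 371 bp, and the rest of 270 bp. Between 200 and 300 bp, 1.63% of the members with a repeat and 0.677% of those without overlapped a CHG region. Between 300 and 400 bp the shares were 17.3% and 9.98%, and from 400 bp on 23.0% and 16.6%. The order with and without a repeat was the same in each of these 3 classes. Below 200 bp none of 133 members overlapped a CHG region. Overlap was also rarer among large differences, with 1.61% of the members at 10 points or more.

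Long L1 copies carried the CHG overlap more often. Members with an L1 copy of at least 2000 bp overlapped a CHG region in 35 of 149 cases (23.5%), and those with shorter L1 copies in 92 of 910 (10.1%). Their direction was alike, with 77.2% and 78.9% hypermethylated. Among the 35 families with at least 40 members described above, L1_Rat1 and L1_Rn had the highest shares at 29.1% each. RMER10B, with none of 41 members, and RMER17C2, with 1 of 156, had the lowest. Members of the first 2 families were also longer, with medians of 344 bp (L1_Rat1) and 330 bp (L1_Rn), against 252 bp (RMER10B) and 268 bp (RMER17C2). Region length was not held equal in the comparisons by L1 copy or by family, and its part in these shares was not tested.

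**Figure D4:**
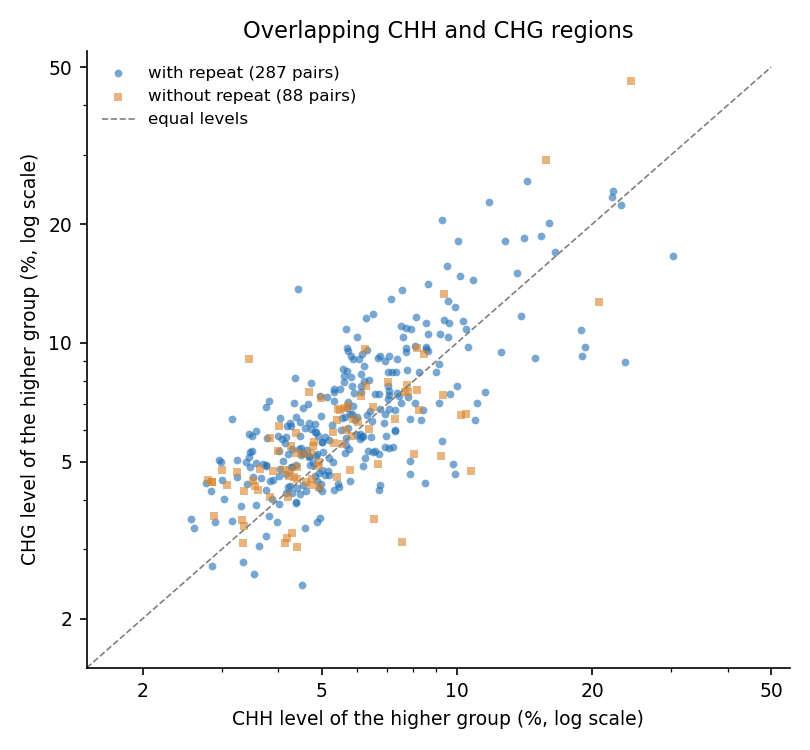
CHG level against CHH level of the higher group, both in percent on log scales, for the 375 pairs of an intergenic CHH region and an overlapping CHG region, with circles for regions with a repeat (287 pairs), squares for regions without (88 pairs) and a dashed line at equal levels. The points follow the line, with a median ratio of CHG to CHH level of 1.13.

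CG regions of the list overlapped 7 members, 5 of them without a repeat, and no intron-only region. All 7 members were hypermethylated in CHH, and 6 of 7 pairs had the same direction. These pairs involved 6 CG regions, because 2 members on chromosome 1 overlapped the same one. At chr14:18792636-18792899 CHH methylation was 10.8% in CUMS against 0.981% in Ctrl, and the CG level 91.1% and 49.2%. At chr16:32909050-32909350 the CHH level was 7.67% and 0.0949%, and the CG level 13.9% and 3.67%. The pair with opposite directions lay on an unplaced scaffold, where CHH methylation was 7.50% in CUMS and 0.0311% in Ctrl and CG was 70.8% and 91.1%. Levels in CG thus ranged widely at regions with like CHH levels.

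Whether neighbouring regions shared a direction was determined next, with the nearest CHH region of the full list. It lay at a median distance of 5575.5 bp. It had the same direction for 63.8% of the hypermethylated members, with 64.6% of the full list hypermethylated, and for 36.8% of the hypomethylated members, with 35.4% of the full list hypomethylated. Within 500 bp the shares were 60.7% of 318 and 36.2% of 94 members. The direction of the nearest region thus followed the make-up of the full list at all distances, close neighbours included.

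Members near each other gave the same picture. Of 545 members with another member within 10 kb, 435 were hypermethylated and 79.5% of these had a nearest member of the same direction, beside 22.7% of the 110 hypomethylated ones. The members were scattered, with a median spacing of 104604 bp, and no extended block of a single direction was found by this measure.

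**Figure D5:**
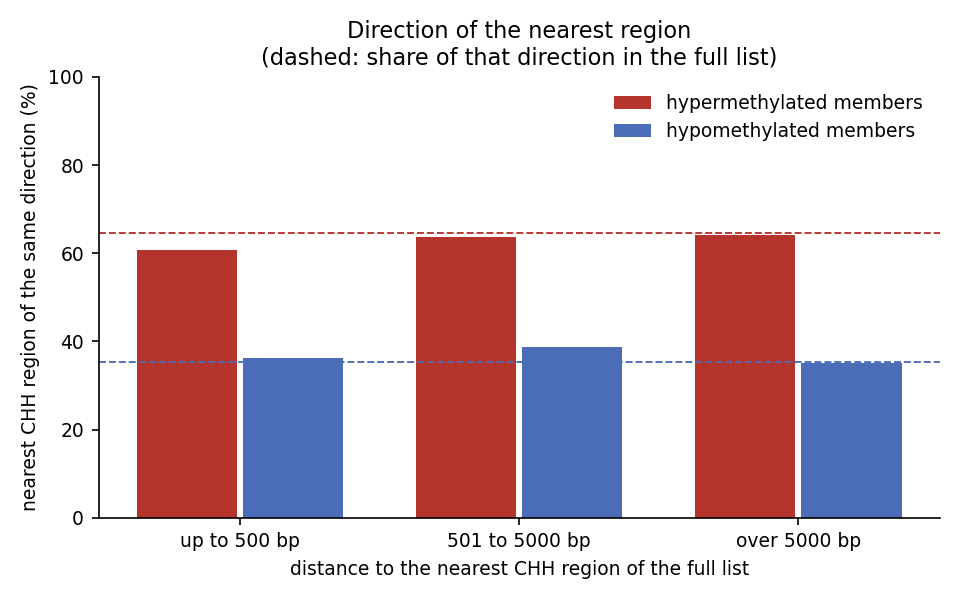
Share of intergenic CHH regions whose nearest CHH region of the full list had the same direction (percent), by distance to it in bp and by direction of the member, with dashed lines at the share of that direction in the full list (64.6% hypermethylated and 35.4% hypomethylated). Within 500 bp the bars stand at 60.7% and 36.2%, near the dashed lines.

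Members lay in 2196 windows of 1 Mb, of which 621 held a single member. The most in a window was 12, in 3 windows. Those were 23 to 24 Mb and 37 to 38 Mb on chromosome 12 and 126 to 127 Mb on chromosome 6, each with 9 hypermethylated and 3 hypomethylated members. Of the 12 members, 5, 2 and 7 had a repeat. Even the fullest windows therefore held both directions, near the share of all members. The full list held 72, 81 and 98 CHH regions there, with 42, 48 and 55 hypermethylated.

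Individual regions are given by rank of areaStat and of the absolute difference, which chose them, so their values are descriptions. The member with the largest areaStat was chr3:124736150-124736763, hypermethylated with 52.1% in CUMS and 9.96% in Ctrl over 292 CHH cytosines. It lay in L1_Rat1 sequence, on a copy spanning positions 1203 to 6428 of the consensus and a second one from 6414 to 6626. Its nearest listed region in a gene was 361.8 kb away, in an intron of Slx4ip.

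The other hypermethylated repeat members of high areaStat held SINE or LTR copies. At chr16:82498866-82499567, 702 bp long with a PB1 copy, a B1-related SINE, CHH methylation was 25.6% in CUMS against 0.812% in Ctrl. At chr9:111857285-111857600, with a RSINE1 copy of the B4 class, it was 32.9% and 0.0546%. At chr1:20682834-20683299, with an ORR1B1-int and a B1_Mur2 copy, it was 23.3% and 0.156%, and the nearest listed region in a gene lay 15.4 kb away in the promoter of Enpp1, a nucleotide pyrophosphatase. In these 3 the Ctrl level was under 1%, unlike in the L1_Rat1 region.

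By difference, the 3 leading hypermethylated regions with a repeat were the L1_Rat1 region on chromosome 3 and 2 regions on X and on chromosome 6. At chrX:4120892-4121176, with 2 copies of the ORR1E LTR, CHH methylation was 57.1% in CUMS against 0.216% in Ctrl, the largest difference of all members, over only 79 CHH cytosines. At chr6:126805061-126805342, with a piece of RLTR32_Rn from position 398 to 474, it was 41.2% and 0.132%. That region lay in the fullest window of chromosome 6, 32.1 kb from a CG region in an exon of Bcl11b, a zinc finger transcription factor.

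Without a repeat, the largest areaStat was at chr2:24854117-24854571, with 29.8% in CUMS and 0.920% in Ctrl over 291 CHH cytosines. At chr14:9692311-9692823 the level was 31.0% and 0.524%, and the nearest listed region in a gene was a CG region 76.0 kb away in an intron of Hnrnpd, an RNA-binding protein. At chr18:42274459-42274782 it was 26.8% and 0.542%. At chr7:109472941-109473258, a stretch with 71.4 CHH cytosines per 100 bp, it was 19.96% and 0.357%, 59.6 kb from a CG region in an intron of Foxred2. All 4 were below 1% in Ctrl.

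By difference, 3 other regions without a repeat led. At chr2:164100981-164101221 CHH methylation was 61.2% in CUMS against 16.7% in Ctrl, the highest Ctrl level among the hypermethylated regions named here. At chr1:6392097-6392254, of 158 bp, it was 44.0% and 0.0718%, and at chr6:11783813-11784066 it was 43.6% and 0.658%. These were shorter than the regions chosen by areaStat and held 125, 73 and 83 CHH cytosines.

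Hypomethylated members with a repeat had lower peaks by areaStat. At chr8:116245697-116246172, with the B1-related PB1D11, CHH methylation was 0.448% in CUMS against 13.8% in Ctrl. At chrX:131791197-131791543, with PB1D10, it was 0.0798% and 17.6%, and at chr18:78131704-78132013, with 2 RMER1C pieces, 0.167% and 17.8%. At chr1:85626814-85627292, which held 4 repeat copies (MT2B, B4, B1_Mur2 and ORR1B1-int) and was the only named region in a CpG island shelf, it was 0.247% and 13.0%. It lay 2.22 kb from a CG region in the promoter of Lrfn3, a synaptic adhesion molecule.

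The largest hypomethylated differences with a repeat were in L1 and ERVK sequence. At chr6:13859663-13859926, with a L1_Rat1 piece from position 382 to 1069, CHH methylation was 0.735% in CUMS against 36.2% in Ctrl, the highest Ctrl level of all members. At chr19:18059253-18059552, with 3 short RLTR32_Rn pieces that all lay between positions 418 and 488, it was 0.270% and 30.2%. This was the only named region that also overlapped a CHG region. At chr2:85317221-85317486, with RNLTR15A2 and L1_Rat3, it was 0.273% and 27.2%. L1_Rat1 and RLTR32_Rn, both among the families with a low hypermethylated share, thus appeared among named regions of both directions.

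Without a repeat, the hypomethylated region of largest areaStat was chr1:45109280-45109601, with 0.187% in CUMS and 19.2% in Ctrl. Beside it stood chr15:9564482-9565016 with 0.390% and 8.46%, chr20:32797446-32797958 with 0.681% and 9.65%, and chr8:61543098-61543566 with 0.113% and 5.61%. The largest differences were at chr19:8212988-8213309 with 0.130% and 31.4%, at chr9:11829929-11830182 with 0.0932% and 30.8%, and at chr5:99226912-99227050 with 0.0739% and 29.7%. In all 7 the CUMS level was below 1%.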

How the data were processed

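Genomic DNA of sorted hippocampal BMECs from 3 CUMS and 3 Ctrl samples, grouped by sample title, was sequenced after TET2 and APOBEC3A treatment. Per the labels and the study's methods, the authors trimmed reads with fastp 0.20.0 (quality by FastQC 0.11.3), aligned them with Bismark 0.16.3 and Bowtie2 to mRatBN7.2 (rn7), and compared the groups with DSS. The deposited levels are a methylated fraction, 1 value per region and group, given here in percent. The deposited areaStat score and a signed difference are the authors' own comparison. The score served only for ranking and is not printed. The deposited difference served only to check the levels, and the differences given here were computed from those levels. Depth was unknown, and no value per sample was given. The gene body profile was not used. The study's methods state a minimum difference of 10 points, but the lists held smaller differences, so regions were used as listed and 10 points was an alternative.

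Annotation rows were joined to 1 region by chromosome, start, end and context. Direction was compared with two-sided Fisher's exact tests (scipy 1.17.1), odds ratios with 95% intervals and Benjamini-Hochberg adjustment over 2 tests, and stratified odds ratios with the Mantel-Haenszel method (statsmodels 0.14.6). Intervals of shares were exact binomial ones and cover counting error only. In each of 4 classes (repeat by direction), the 4 regions with the largest absolute areaStat and the 3 with the largest absolute difference were named, with the 3 windows of 1 Mb with the most members. Distances to genes are to the nearest listed region of any context that lies in a gene. Neighbouring regions are not independent. Functions were tested on simulated data. Members and lists were chosen with earlier results of these data known. Region sequences were not used here.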

Additional observations from a re-analysis of the deposited data

Results flagged for a closer look

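CHH regions of the reduced list without annotation entered no comparison, and 2 of these 4 had a higher level in CUMS than in Ctrl. A region of 223 bp on an unplaced scaffold had 10.1% in CUMS and 0.193% in Ctrl. Another, of 302 bp on a different unplaced scaffold, had 8.70% in CUMS and 3.03% in Ctrl. The other 2 were lower in CUMS, with 0.126% against 5.95% and 0.0687% against 3.95%. The tables give no spread between samples for any of them.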

How the results depend on the processing

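Of 34 alternatives over 6 results, 20 were the same, 9 moved and 5 reversed. Odds ratios counted as the same if they kept the direction and side of the threshold. Shares did so if they stayed within counting error. Differences in medians did so if of like sign and size, or on the log scale if of like sign. The hypermethylated share of 79.2% rose to 89.0% at 10 points, 92.9% at 20 points and 83.4% among the 2954 members of higher areaStat. The odds ratio for direction with against without a repeat (1.00) fell below 1 at 10 points (0.715, Fisher's exact p = 0.0260), at 20 points (0.735, p = 0.643) and with strata by quartile of cytosines (0.9996, p = 0.995, within rounding of the main value). The odds ratio against intron-only regions (1.12) fell to 0.861 at 10 points (Fisher's exact p = 0.253) and 0.855 at 20 points (p = 0.845). The share with a repeat (55.1%) moved to 50.4% at 10 points, 47.9% at 20 points and 53.7% on chromosomes 1 to 20. The difference in median absolute difference, with minus without a repeat (-0.949 points), moved to -0.339 in hypomethylated members. The CHG overlap (6.13%) moved to 6.77% within 1 kb and 1.61% at 10 points. The p-values of the alternatives were not adjusted, and the causes were not tested.

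No paired analysis was possible because each region has 1 combined value per group, and leaving out single samples was not run for the same reason. Depth per region was unknown, so low levels could not be given an error.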
